A study of Mus musculus with 18 samples.

Results

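The genes of the TNF death complex and of the apoptosome, with the death ligands and receptors and the BCL2 family around them, were followed through 3 mouse tissues: the uterus, the eutopic endometrium of operated mice, and ectopic endometriotic lesions. They were 38 genes chosen by symbol: 3 ligands (Tnf, Fasl, Tnfsf10), 4 receptors (Tnfrsf1a, Tnfrsf1b, Fas, Tnfrsf10b), 7 adaptors and kinases (Tradd, Traf1, Traf2, Ripk1, Ripk3, Fadd, Map3k5), 5 caspases and their decoy (Casp2, Casp6, Casp8, Casp9, Cflar), 5 genes of the apoptosome and of mitochondrial release (Apaf1, Cycs, Diablo, Endog, Aifm1), 3 inhibitors of apoptosis (Xiap, Birc2, Birc3), 3 BCL2 guardians (Bcl2, Bcl2l1, Mcl1), 2 effectors (Bax, Bak1) and 6 BH3-only genes (Bcl2l11, Bid, Bad, Bik, Bbc3, Pmaip1). All 38 had a probe, among 22911 gene symbols on the array, and all 38 were tested.

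In these data 1 of the 38 passed the test in any of 12 comparisons: Tnfrsf1b, a TNF receptor, was higher in lesions than in unoperated uterus. In that comparison 2.09% of all features passed, and the Tnfrsf1b call was lost when any of 14 arrays was left out. None passed between the genotypes in any tissue, where 0% of features did.

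TNF binds its receptor TNFR1, the product of Tnfrsf1a, and a membrane complex of TRADD, TRAF2, RIPK1 and the cellular IAPs forms and drives NF-kB and MAP kinase signalling. When this complex converts to a cytosolic one with FADD and Casp8 protein, the cell dies by apoptosis unless the decoy cFLIP, encoded by Cflar, holds the caspase back, and where the caspase is blocked RIPK1 and RIPK3 can drive necroptosis. The mitochondrial arm starts when BH3-only proteins free BAX and BAK from the BCL2 guardians, after which cytochrome c binds APAF1 to form the apoptosome, the platform that activates the protein of Casp9. In endometriosis, survival of refluxed endometrial tissue at ectopic sites is a long-standing theme, and much of the control of these proteins is by binding, cleavage and ubiquitination, which an RNA measurement does not see.

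The animals were female mice of 2 genotypes. PRCre/+ mice carry Cre recombinase under the progesterone receptor gene and were the controls, and ERBOE mice are described as overexpressing oestrogen receptor beta. For lesions, a 2 mm punch of ERBOE or PRCre/+ uterus was implanted in an intact wild-type C57BL/6J host of 8 weeks, so the host's own cells in a lesion are wild type. For eutopic endometrium, ERBOE or PRCre/+ hosts of 8 weeks received a wild-type punch, and both kinds of tissue were taken at estrus 4 weeks after surgery. Uterus came from ERBOE or PRCre/+ mice of 12 weeks at estrus without surgery. Each of the 6 groups held 3 arrays, each of RNA pooled from 3 of 9 animals, so a p-value measures the spread between pools. For ERBOE lesion and eutopic samples the source label contradicts the title by saying that the mice had no endometriosis, and the design text mentions harvested lesions where eutopic tissue is meant; samples were grouped by title.

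Levels are log2 intensity relative to the array's 75th percentile signal, which was 455.1 to 744.7 on 17 arrays and 239.6 on PRCre uterus replicate 1, and 55.3% to 74.2% of probes were well above background. The bright Esr2 probe, for the gene that ERBOE mice are said to overexpress, differed between arrays labelled ERBOE and PRCre by -0.24 ± 0.20 (SE) in uterus, by 0.01 ± 0.20 in eutopic tissue and by -0.26 ± 0.20 in lesions; no difference passed (adjusted p = 0.723, 1 and 0.993). The dimmer Esr2 probe exceeded background on 1 of 18 arrays, and no source used here says whether either probe reads the transgene. The genotype comparisons therefore rest on the labels. Markers of adipocytes stood apart in lesions: the summed signal of 8 markers was 1.44 to 2.25 times the 75th percentile in uterus, 1.60 to 14.2 in eutopic endometrium and 32.5 to 283 in lesions. In bulk tissue, fewer cells of a type and less RNA per cell cannot be told apart.

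The promoters of 4 members are shown because 3 receptor genes that read higher in lesions, Tnfrsf1a, Tnfrsf1b and Fas, share a motif that few promoters have, and because Aifm1, which read higher with the ERBOE label, holds an oestrogen receptor core motif. Ripk1 also holds the motif of the receptors but differed little between lesions and uterus, and its promoters are not shown. The 4 shown were chosen after the values were seen. They are the 250 bases before the RefSeq start, 5′ to 3′ on the gene's strand in assembly GRCm38.p6: Tnfrsf1a at chr6:125349473-125349722 (+), Tnfrsf1b at chr4:145246871-145247120 (-), Fas at chr19:34290409-34290658 (+) and Aifm1 at chrX:48513564-48513813 (-). Capitals mark the gamma-activated site TTCNNNGAA in the receptors, the AP-1 motif TGANTCA in Fas, and AGGTCA and an NF-kB consensus match in Aifm1.
Tnfrsf1a: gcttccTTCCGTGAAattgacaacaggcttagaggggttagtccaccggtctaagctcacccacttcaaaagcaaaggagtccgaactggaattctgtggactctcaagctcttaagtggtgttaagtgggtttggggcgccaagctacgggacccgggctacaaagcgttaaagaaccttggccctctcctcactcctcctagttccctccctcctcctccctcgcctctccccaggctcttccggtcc
Tnfrsf1b: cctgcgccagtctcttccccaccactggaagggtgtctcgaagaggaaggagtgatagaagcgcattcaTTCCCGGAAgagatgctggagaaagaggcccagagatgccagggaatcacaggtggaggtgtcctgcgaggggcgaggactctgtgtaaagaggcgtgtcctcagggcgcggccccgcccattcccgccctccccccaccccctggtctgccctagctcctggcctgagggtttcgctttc
Fas: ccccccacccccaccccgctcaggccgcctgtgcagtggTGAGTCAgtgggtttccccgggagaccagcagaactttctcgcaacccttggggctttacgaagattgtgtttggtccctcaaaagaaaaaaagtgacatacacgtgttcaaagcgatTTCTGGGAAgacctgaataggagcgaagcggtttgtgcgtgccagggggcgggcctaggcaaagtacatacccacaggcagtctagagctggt
Aifm1: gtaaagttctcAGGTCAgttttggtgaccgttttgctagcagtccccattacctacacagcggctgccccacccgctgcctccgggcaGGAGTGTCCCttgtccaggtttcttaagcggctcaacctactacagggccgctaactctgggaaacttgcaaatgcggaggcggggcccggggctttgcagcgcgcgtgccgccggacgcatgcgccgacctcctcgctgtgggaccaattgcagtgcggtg
Among the 34 members with a promoter entry, TTCNNNGAA on either strand was found in 4 (11.8%: Tnfrsf1a, Tnfrsf1b, Ripk1 and Fas) against 8.13% of 27025 genes, with no match overlapping another of the motifs marked here. The core AGGTCA was found in 2 (5.88%: Bcl2l1 and Aifm1) against 15.8%, and the full palindromic oestrogen response element in 0 against 0.0666%. TGANTCA was found in 1 (2.94%: Fas) against 7.82%, and the NF-kB consensus in 3 (8.82%: Bcl2l1, Bbc3 and Aifm1) against 8.23%. The GC box GGGCGG stood in 23 of 34 (67.6%) against 35.4% of all genes. Each match is a description of letters in this window and not a binding site.

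Of the 38 members, 36 were well above background on all 18 arrays. The exceptions were ligands, Tnf on 17 arrays and Fasl on 16, with 1 of 3 ERBOE lesion arrays for Fasl. The members varied less between replicate arrays than the array as a whole, with a median within-group SD of 0.378 log2 units against 0.486 over 33178 features. Xiap (0.155), Diablo (0.171) and Bax (0.180) were the steadiest, and Pmaip1 (1.25), Tnf (0.921), Tnfsf10 (0.804) and Tnfrsf1b (0.732) the most variable. A member with a wide spread could therefore differ between groups by a good deal without passing.

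**Figure D1:**
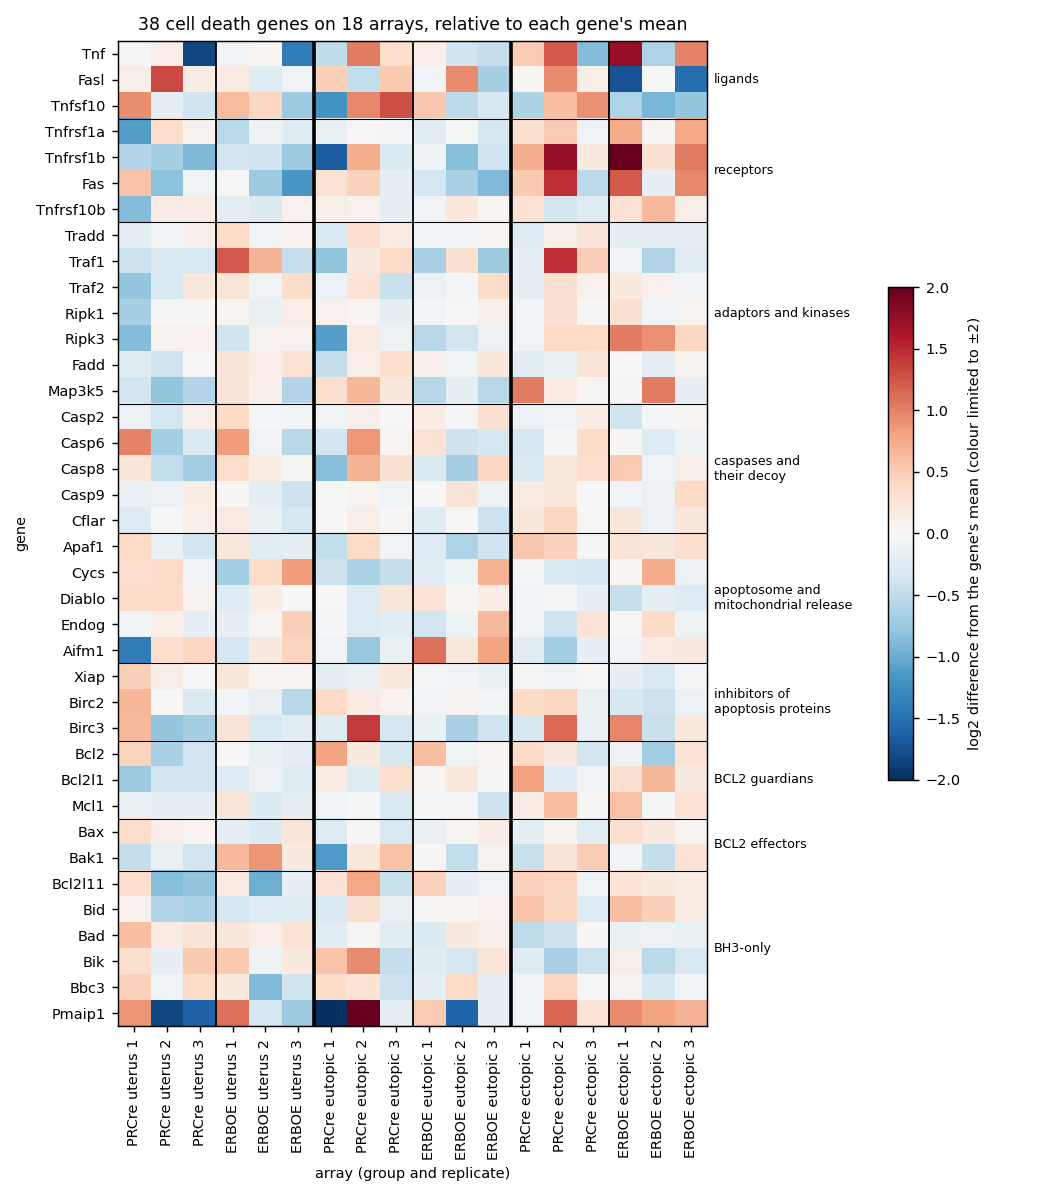
Level of each of the 38 genes (rows, grouped by role) on each of the 18 arrays (columns), as the log2 difference from that gene's mean over all arrays. Tnfrsf1b and Ripk3 are red on most lesion arrays at the right, Fasl is dark blue on 2 ERBOE lesion arrays, and most rows of caspases and of Bax stay pale throughout.

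Between lesions and unoperated uterus 1 of the 4 receptor genes passed, and all 4 read higher in lesions, by a median of 0.79 log2 units. Tnfrsf1b rose by 1.65 ± 0.40 (SE; 95% interval 0.80 to 2.50), a ratio of 3.14, with an adjusted p of 0.0468 over 6 arrays against 6. Over all members, 1 of 38 passed, where 2.09% of all features did, and 9 read higher and 3 lower at an unadjusted p under 0.05 (31.6% of members against 16.2% of features). The median difference was 0.11 over the members and -0.07 over all features. Genes named below did not pass unless stated.

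Tnfrsf1b encodes TNFR2, the TNF receptor without a death domain, which recruits TRAF proteins directly and is found largely on immune and endothelial cells. Its level was -1.89, -1.96 and -2.20 in PRCre uterus and -1.68, -1.69 and -2.02 in ERBOE uterus. Over both genotypes its values in uterus had the narrowest range of the 3 tissues. In lesions it was -0.58, 0.45 and -1.11 for PRCre and 0.94, -0.99 and -0.25 for ERBOE, so every lesion array stood above every uterus array. In eutopic endometrium it was -2.95, -0.57 and -1.57 for PRCre and -1.40, -2.15 and -1.70 for ERBOE, and PRCre eutopic replicate 2 stood inside the lesion range. The lesion minus uterus difference was 2.62, 1.67 and 1.06 within slides 1, 2 and 3. Slide 1 held no PRCre lesion, so its value, here and for the genes below, sets 1 ERBOE lesion array against 1 ERBOE uterus array. The call had little room: it was lost when any of 14 arrays was left out, with an adjusted p up to 0.13, and held without PRCre lesion replicate 3, ERBOE lesion replicate 2 or PRCre eutopic replicate 1 or 2, and it was lost with the replicate number as a block (adjusted p = 0.0685) or with no filter on dim probes (0.0649).

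Macrophage markers moved with Tnfrsf1b. All 10 of the list were well above background on every array and read higher in lesions than in uterus, by a median of 1.14, with 0 of 10 passing, and their summed signal was 39.4 to 83.9 in uterus, 39.9 to 102 in eutopic endometrium and 62.3 to 259 in lesions. PRCre eutopic replicate 2, the eutopic array highest for Tnfrsf1b, also had the highest eutopic sum (102), and PRCre lesion replicate 3, the lesion array lowest for Tnfrsf1b, had the lowest lesion sum (62.3). PRCre uterus replicate 1 did not follow: its sum was 83.9 at a Tnfrsf1b level of -1.89. Other lists read higher in lesions too: endothelial markers in 8 of 8 genes, by a median of 0.58 with 0 passing, with sums of 8.88 to 25.9 in uterus and 22.7 to 29.9 in lesions, and T cell markers in 9 of 9, by 0.82 with 1 passing. B and plasma cell markers read higher in 6 of 7, by 1.08 with 2 passing, with sums of 4.16 to 26.5 in uterus and 12.0 to 67.2 in lesions. The part of these cells in the result was not tested.

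**Figure D2:**
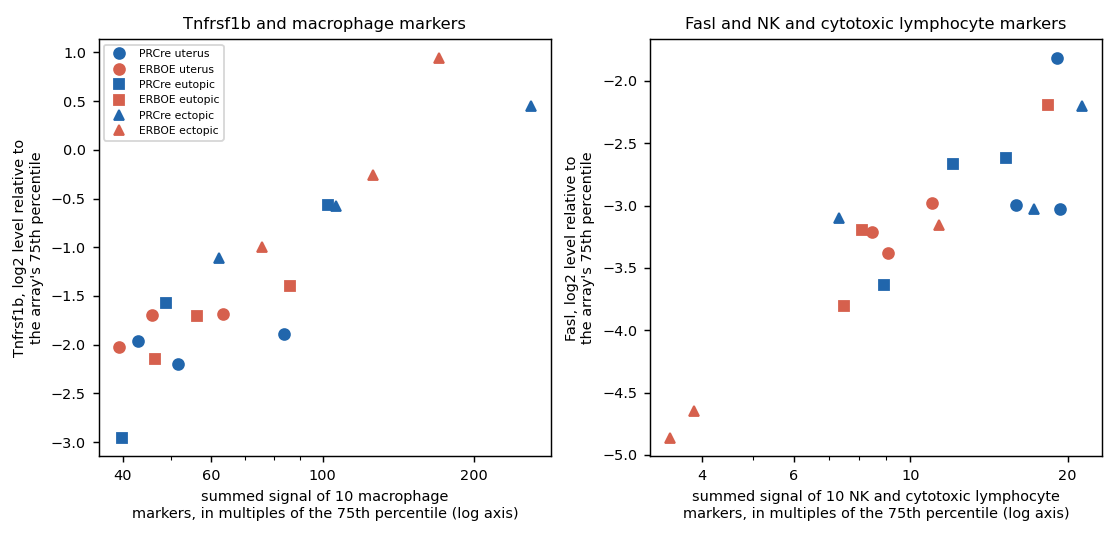
Left, the log2 level of Tnfrsf1b on each of 18 arrays against the summed signal of 10 macrophage markers; right, the log2 level of Fasl against the summed signal of 10 NK and cytotoxic lymphocyte markers, both on a log axis in multiples of the array's 75th percentile. Lesions (triangles) lie at the upper right for Tnfrsf1b, and the ERBOE lesion arrays with NK sums of 3.48 and 3.86 are the lowest for Fasl.

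The other receptors read in the same direction without passing. Tnfrsf1a, the death-domain receptor of TNF, ranged from 1.78 to 3.23 in uterus (median 2.71) and from 2.80 to 3.64 in lesions (median 3.29), a difference of 0.64 ± 0.23 (adjusted p = 0.169). The lowest uterus value was that of the dim array, PRCre uterus replicate 1, and without it the difference was 0.42 (adjusted p = 0.244). Fas, the receptor of Fas ligand, had a median of -1.15 in uterus (-1.92 to -0.18) and -0.01 in lesions (-1.27 to 0.72), higher by 0.95 ± 0.36 (adjusted p = 0.192), with the groups overlapping at both ends. Tnfrsf10b, the mouse TRAIL receptor, differed by 0.28, within its spread.

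Among the ligands Tnf was read by 2 probes that differed in size of change. The brighter one gave 1.02 ± 0.49 between lesions and uterus (adjusted p = 0.328), with medians of -1.66 and -2.46. The other, well above background on all 18 arrays, gave 2.15 ± 0.64 (adjusted p = 0.104), from -4.36 to -2.81 in uterus and from -3.59 to 0.45 in lesions. On that probe the values were -1.73, -0.32 and -3.59 in PRCre lesions and 0.45, -2.08 and -0.92 in ERBOE lesions, so PRCre lesion replicate 3 lay among the uteri and the other 5 above them. On both probes PRCre eutopic replicate 2 read highest of its tissue, at -1.38 and -0.62. Fasl and Tnfsf10, the ligands Fas ligand and TRAIL, differed by -0.60 and -0.35, within their spread.

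Of the 7 adaptors and kinases, 5 read higher in lesions than in uterus, with a median of 0.13 over the 7. Ripk3, the necroptosis kinase, went from a median of 0.85 (-0.09 to 0.88) in uterus to 1.19 (0.70 to 1.80) in lesions, a difference of 0.67 ± 0.24 (adjusted p = 0.172). Map3k5, the stress kinase ASK1 of the JNK branch, differed by 0.68 ± 0.24 (adjusted p = 0.172), but its within-slide values were -0.28, 0.56 and 1.12. Tradd (-0.12), Traf1 (0.07), Traf2 (0.13), Ripk1 (0.18) and Fadd (-0.04), which build the complexes at the receptor, stayed within 0.2 of zero.

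The caspases and the apoptosome showed no called difference and small values. The 5 genes of the caspase group lay between -0.09 and 0.23, with Cflar, the caspase decoy, at 0.23 ± 0.14. Apaf1, the apoptosome scaffold, read 0.35 higher and Diablo, whose protein Smac releases caspases from XIAP, differed by -0.32 ± 0.13 (adjusted p = 0.238). Cycs (-0.20), Endog (-0.03) and Aifm1 (-0.08) did not stand out from their errors. Xiap, the direct inhibitor of caspases, lay lower in lesions on every array (1.92 to 2.22) than in uterus (2.23 to 2.69), by -0.25 ± 0.13 (adjusted p = 0.362). The margin was narrow, and on the other Xiap probe lesions and uterus overlapped. Birc2 and Birc3 overlapped.

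In the BCL2 family, guardians and BH3-only genes carried the next smallest p-values after Tnfrsf1b. Bid, the BH3-only link from Casp8 protein to the mitochondrion, read 0.08, -0.60 and -0.64 in PRCre uterus and -0.37, -0.27 and -0.25 in ERBOE uterus. In lesions it read 0.56, 0.40 and -0.27 for PRCre and 0.58, 0.45 and 0.13 for ERBOE, a difference of 0.65 ± 0.18 (adjusted p = 0.0822), and 0.95, 0.74 and 0.54 within the slides. It passed without PRCre uterus replicate 1 (0.77, adjusted p = 0.0355), whose value stood alone among the uteri. Bad, the BH3-only sensor of growth factor signals, read lower in lesions: 2.98, 3.07 and 3.52 for PRCre and 3.35, 3.37 and 3.35 for ERBOE, against 4.09, 3.66 and 3.75 in PRCre uterus and 3.72, 3.62 and 3.77 in ERBOE uterus. The 2 tissues did not overlap, and the difference was -0.49 ± 0.14 (adjusted p = 0.0888), with -0.36, -0.45 and -0.31 within slides.

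Bcl2l1, the gene of the guardian BCL-XL that binds BAD, ran the other way, from a median of 2.91 in uterus (2.49 to 3.11) to 3.47 in lesions (2.97 to 4.03), by 0.62 ± 0.18 (adjusted p = 0.101). Its 5 probes gave 0.19 to 0.65. On single arrays the Bad minus Bcl2l1 difference, whose zero has no meaning since probes differ in brightness, averaged 1.1 ± 0.43 (SD, n = 3) in PRCre uterus and 0.69 ± 0.15 in ERBOE uterus, and -0.19 ± 0.75 and -0.25 ± 0.24 in the corresponding lesions. Mcl1, a short-lived guardian, read 0.40 ± 0.16 higher (adjusted p = 0.22), Bcl2l11, the gene of BIM, 0.62 ± 0.27 higher (adjusted p = 0.269) and Bik differed by -0.56 ± 0.24 (adjusted p = 0.256). Pmaip1, the gene of NOXA and the member with the widest replicate spread, read 1.05 ± 0.67 higher (adjusted p = 0.486), and Bbc3 differed by 0.05. The effectors Bax (-0.01) and Bak1 (-0.11) and the guardian Bcl2 (0.09) read close to zero difference. Members of 1 family thus read both up and down. On the brightest probe, groups that did not overlap numbered 3 of 38, Tnfrsf1b upward and Bad and Xiap downward, where 1.63% of all features separated this way.

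**Figure D3:**
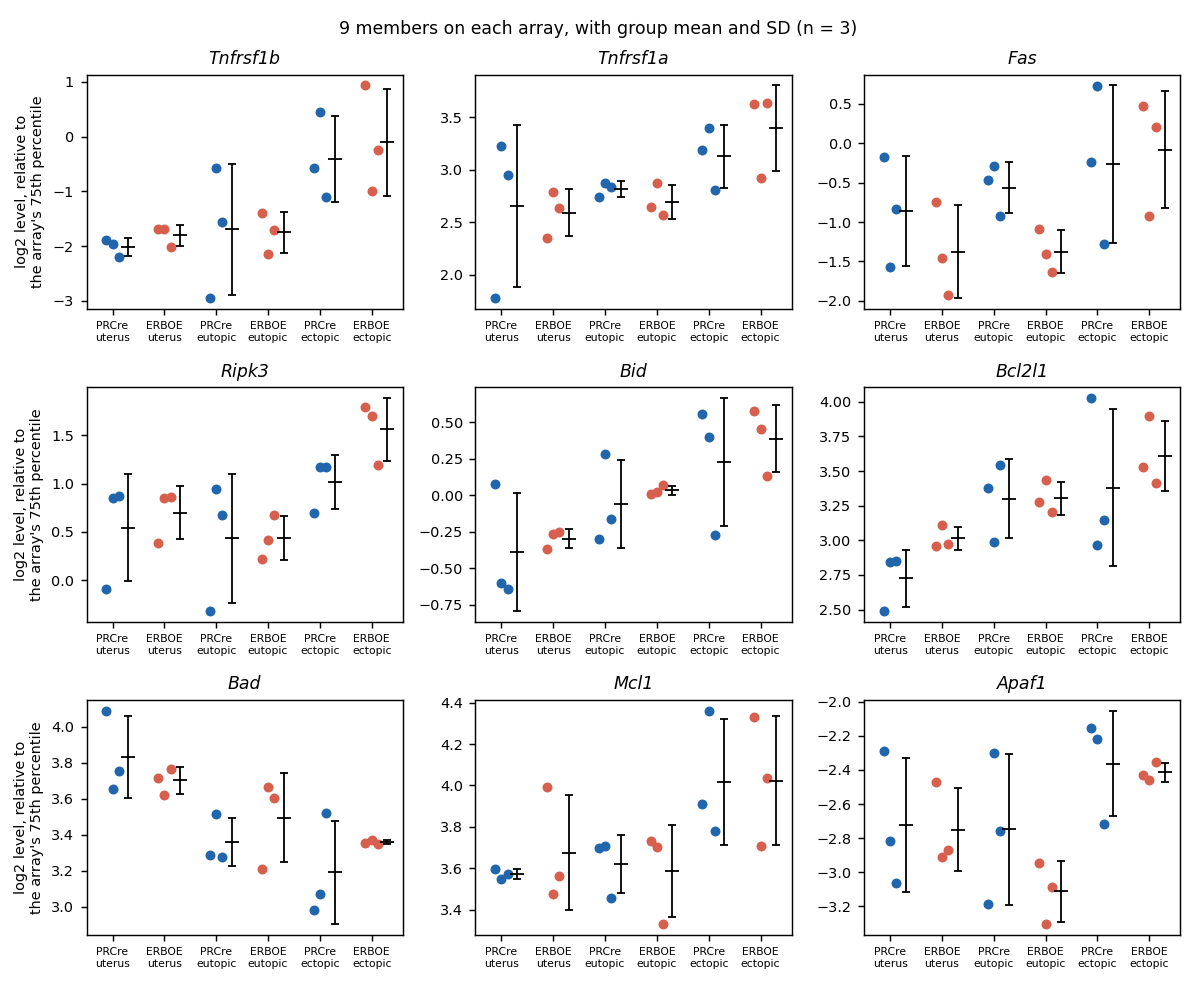
Log2 level relative to the array's 75th percentile of 9 genes in the 6 groups (x axis), one point per array, with the group mean and SD (n = 3) as a bar beside it; blue is PRCre and red ERBOE. Tnfrsf1b lies between -2.20 and -1.68 in uterus and between -1.11 and 0.94 in lesions, and Bad lies lower in lesions than in uterus.

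Set against eutopic endometrium, which had also been through 4 weeks of the operated state, lesions showed no called member: 0 of 38, where 1.24% of features passed. At an unadjusted p under 0.05 there were 6, all higher (15.8% against 12.6% of features). Tnfrsf1b led with 1.47 ± 0.40 (adjusted p = 0.107), and the range over single arrays left out was 0.0439 to 0.28, passing once, without PRCre eutopic replicate 2. Ripk3 came next at 0.85 ± 0.24 (adjusted p = 0.123). Its values were -0.32, 0.95 and 0.68 in PRCre and 0.22, 0.41 and 0.67 in ERBOE eutopic endometrium, and 0.70, 1.17 and 1.18 in PRCre and 1.80, 1.70 and 1.19 in ERBOE lesions. All ERBOE lesion arrays lay above all eutopic arrays, while PRCre lesion replicate 1 lay among them.

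The remaining 4 of the 6 were Apaf1 (0.54 ± 0.19, adjusted p = 0.211), Mcl1 (0.42 ± 0.16, 0.269), Fas (0.80 ± 0.36, 0.367) and Tnfrsf1a (0.51 ± 0.23, 0.376). Apaf1 ranged from -3.30 to -2.30 in eutopic endometrium and from -2.72 to -2.15 in lesions. Macrophage markers read higher by a median of 0.96 here too, 10 of 10, with 0 passing, as did endothelial markers in 8 of 8, by 0.51 with 0 passing, and B and plasma cell markers in 6 of 7, by 1.54 with 3 passing; their part was not tested. Bid (0.32), Bcl2l1 (0.19) and Bad (-0.15) differed less between lesions and eutopic endometrium than between lesions and uterus, though these comparisons share the lesion arrays.

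The lesion minus eutopic differences were also taken in each genotype, which share no array. These tissues were uneven over the slides. Slide 3 held lesions but no eutopic array, and slide 1 held 2 eutopic arrays of each genotype but 1 lesion array, of ERBOE. Slide and tissue can therefore be told apart only in part, here and for both genotypes together. They had the same sign in both for 28 of 38 members (73.7%), close to the 70.1% of all features, with 19 higher and 9 lower. In ERBOE no member passed (0.600% of features did), 7 had an unadjusted p under 0.05 (18.4% against 10.6% of features), and 13 of 38 members had groups that did not overlap (34.2% against 20.5% of features). Of these, 8 were higher in lesions (6.84% of features), namely Tnfrsf1a, Tnfrsf1b, Ripk3, Apaf1, Bid, Pmaip1, Fas and Map3k5, and 5 lower (13.6% of features), namely Tradd, Diablo, Birc2, Tnfsf10 and Aifm1. On the brightest probe of each gene, the largest were Tnfrsf1b at 1.65 ± 0.56 (adjusted p = 0.279), Fas at 1.30 ± 0.50 (0.366) and Pmaip1 at 1.23 ± 0.94 (0.715). Fasl at -1.16 ± 0.51 (0.436) and Ripk3 at 1.13 ± 0.34 (0.205) followed. With normexp, a model-based background correction, Fasl differed by -0.33. With arrays weighted by quality Tnfrsf1b, Ripk3 and Fas passed (adjusted p = 0.0292, 0.0358 and 0.0353). Tnf differed by 0.95 ± 0.70 on its brighter probe. The other Tnf probe averaged -0.85 (-2.08 to 0.45) in ERBOE lesions and -3.36 (-4.03 to -2.68) in ERBOE eutopic endometrium, without overlap. Apaf1 read 0.70 ± 0.26 higher and Diablo differed by -0.46 ± 0.19. The other Diablo probe averaged -2.57 in ERBOE lesions and -2.55 in ERBOE eutopic endometrium, with the groups overlapping. The other Apaf1 probe averaged -2.73 and -3.08 in the same groups, without overlap. The other Tnfrsf1a probe did not overlap either, but the other probes of Fas and Map3k5 did.

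In PRCre no member passed either (0.00301% of features did), and 2 had an unadjusted p under 0.05 (5.26% against 3.92% of features). Groups of 2 of 38 did not overlap (Mcl1 and Cycs, against 6.92% of features), but on the other Cycs probe they did. The other Tnf probe averaged -1.88 in PRCre lesions and -2.73 in PRCre eutopic endometrium, with overlap. Tnfrsf1b differed by 1.28 ± 0.56, Bik by -0.78 ± 0.34, Traf1 by 0.67 ± 0.47, Ripk3 by 0.58 ± 0.34, Mcl1 by 0.40 ± 0.22 and Apaf1 by 0.39 ± 0.26 (adjusted p = 1 for each). These values hung on single arrays: leaving 1 out gave 0.66 to 1.85 for Tnfrsf1b, -1.19 to -0.48 for Bik, 0.23 to 1.06 for Traf1, 0.20 to 0.84 for Ripk3, 0.22 to 0.51 for Mcl1 and 0.17 to 0.61 for Apaf1. The lesion effect was not shown to differ between genotypes: for Fas the genotype effect in lesions minus that in eutopic endometrium was 1.00 ± 0.71 (0.49 without PRCre lesion replicate 3), and no member passed that test (0% of features did).

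**Figure D4:**
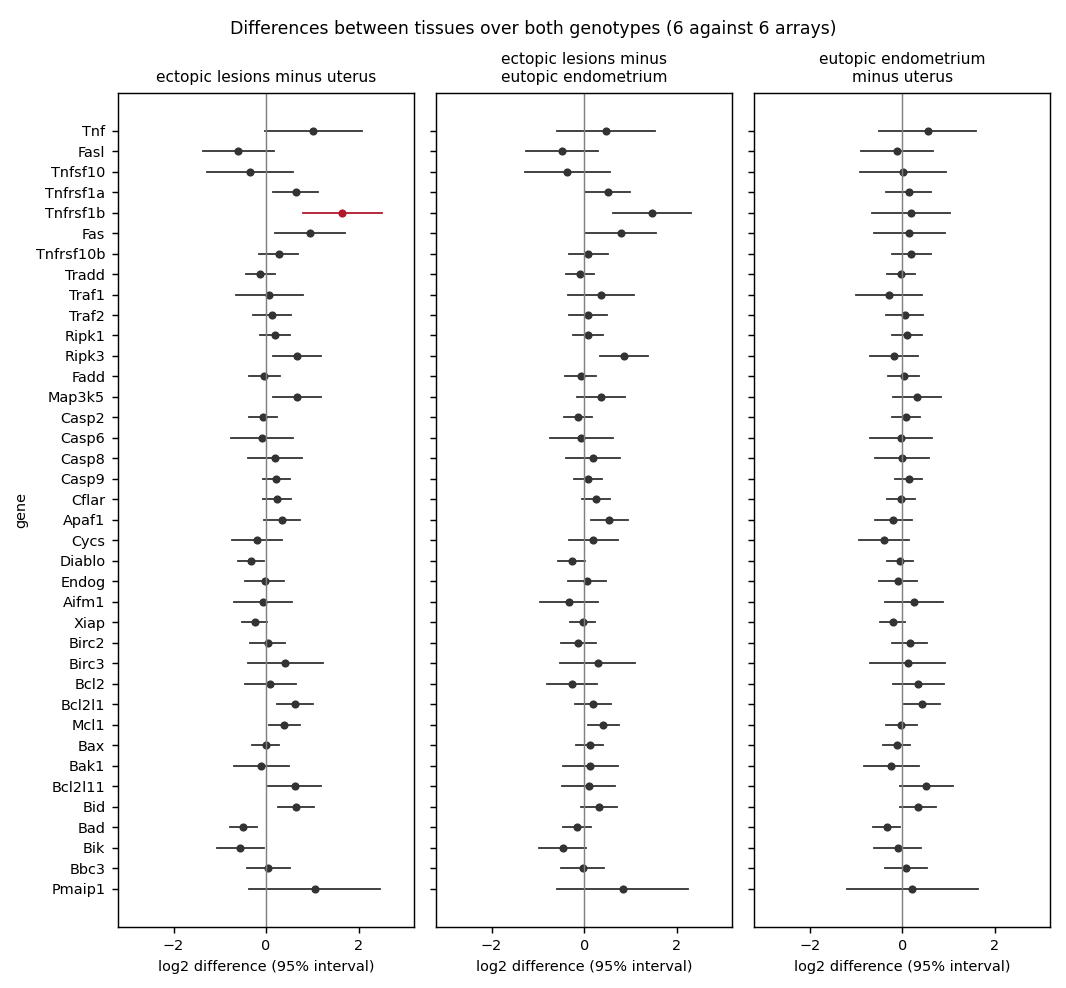
Difference in log2 level between tissues over both genotypes (x axis) for each of the 38 genes (y axis), with 95% intervals from the model, for lesions minus uterus, lesions minus eutopic endometrium and eutopic endometrium minus uterus. Tnfrsf1b, in red, is the gene that passed at an adjusted p of 0.0468, and the third panel stays closest to zero.

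Eutopic endometrium of operated mice differed little from unoperated uterus. No member passed and no feature did (0%), 2 members had an unadjusted p under 0.05 (5.26% against 3.92% of features), and the 95% interval lay within a 2-fold change for 33 of 38 members (86.8%, against 64.6% of features). The smallest p-values belonged to Bad (-0.34 ± 0.14) and Bcl2l1 (0.43 ± 0.18), then Bcl2l11 (0.52 ± 0.27), Bid (0.33 ± 0.18), Xiap (-0.21 ± 0.13) and Cycs (-0.40 ± 0.25), each with an adjusted p of 0.98. Bad, Bcl2l1, Bcl2l11, Bid, Xiap and Cycs each read in the direction seen in lesions against uterus, a comparison that shares the uterus arrays. Tnfrsf1b differed by 0.18 ± 0.40.

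The genotype comparison sets arrays labelled ERBOE against arrays labelled PRCre, and no member passed this test. In uterus, eutopic endometrium and lesions 0 of 38 passed, and the share of all features that passed was 0% in each, and over the 3 tissues together 0 of 38 passed against 0.0121% of features. At an unadjusted p under 0.05 there were 1 member in uterus (2.63% against 9.88% of features), 2 in eutopic endometrium (5.26% against 2.94%), 1 in lesions (2.63% against 4.46%) and 3 over the tissues (7.89% against 9.00%). The intervals bound the change: over the 3 tissues the 95% interval lay within a 2-fold change in either direction for 33 of 38 members (86.8%, against 73.2% of features), and within single tissues for 23, 24 and 22. Differences of the 3 tissues had one sign throughout for 15 of 38 members (39.5%, against 35.6% of features), higher in ERBOE for Traf2, Ripk1, Ripk3, Bcl2l1, Bid, Tnfrsf10b, Endog and Aifm1, and lower for Cflar, Apaf1, Xiap, Birc2, Bbc3, Fasl and Tnfsf10.

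**Figure D5:**
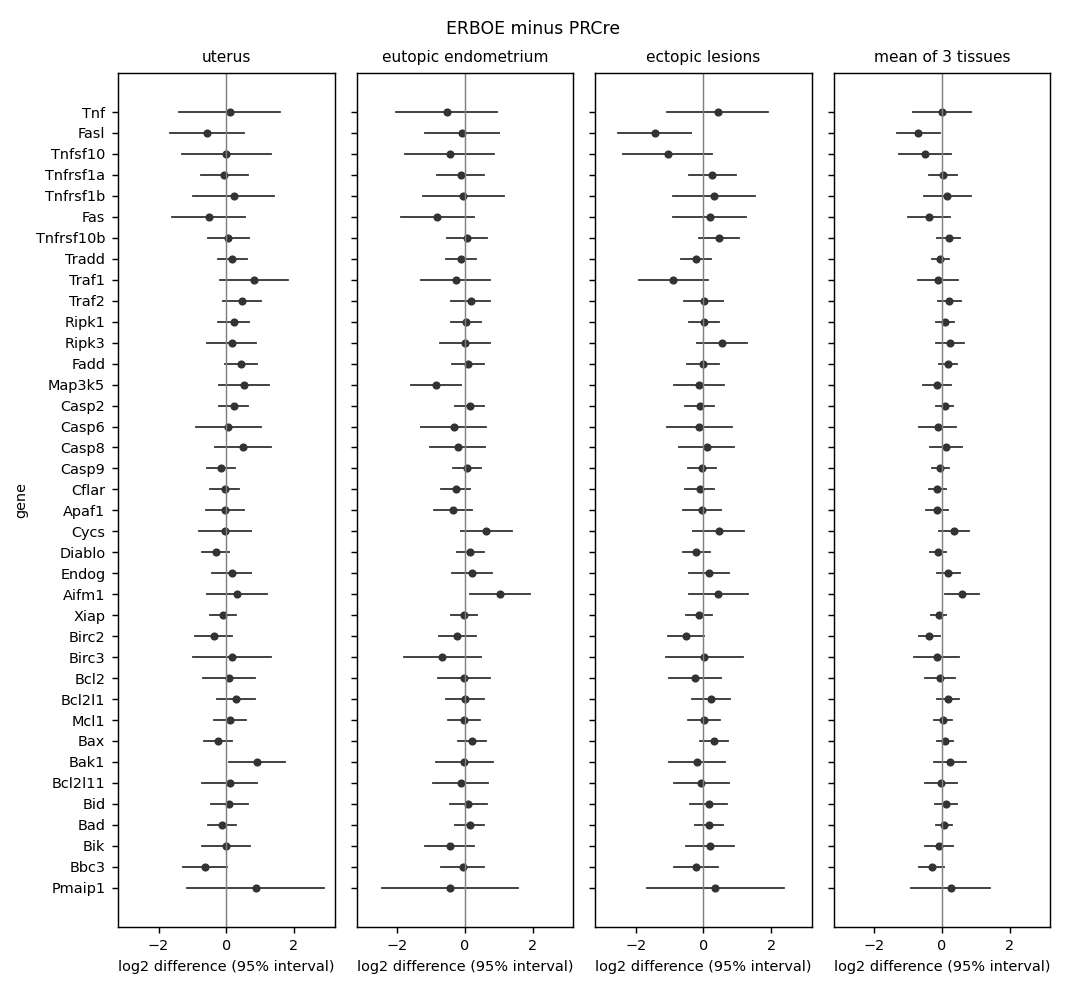
ERBOE minus PRCre difference in log2 level (x axis) for each of the 38 genes (y axis) with 95% intervals, in uterus, eutopic endometrium, lesions and as the mean of the 3 tissues. No gene passed, and in the last panel 33 of 38 intervals lie within 1 log2 unit of zero.

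Over the 3 tissues the members with the smallest p-values were an inhibitor of apoptosis, a mitochondrial flavoprotein and a ligand. Birc2, the gene of cIAP1, read lower with the ERBOE label by -0.37 ± 0.15 (adjusted p = 0.49). In lesions it read -0.50, -0.46 and -1.05 for PRCre and -1.22, -1.33 and -1.02 for ERBOE, with PRCre replicate 3 among the ERBOE values. Aifm1, the flavoprotein AIF that can leave mitochondria in caspase-independent death, read higher by 0.59 ± 0.24 (adjusted p = 0.505), and by 0.39 without the dim PRCre uterus replicate 1, where it was 0.40 against 2.14 and 2.22 in the other 2 replicates. Fasl read lower by -0.70 ± 0.29 (adjusted p = 0.518; -0.33 with normexp), Bbc3, the gene of PUMA, by -0.30 ± 0.17, Tnfsf10 by -0.50 ± 0.35, and Cycs higher by 0.35 ± 0.21.

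In lesions Fasl, the death ligand of cytotoxic lymphocytes, read lower with the ERBOE label without passing. It read -3.10, -2.20 and -3.03 in PRCre lesions and -4.86, -3.16 and -4.65 in ERBOE lesions, a difference of -1.45 ± 0.51 (adjusted p = 0.993), and the groups did not overlap by a narrow margin. It was well above background on 1 of the 3 ERBOE arrays, so the size is poorly measured: it was -0.51 with normexp background correction. The difference was -2.0 within slide 2 and -0.13 within slide 3. NK and cytotoxic lymphocyte markers moved with it: 10 of 10 were lower in ERBOE lesions, by a median of -1.29, with 0 passing, and their summed signal was 7.31, 21.3 and 17.2 on the PRCre and 3.48, 11.4 and 3.86 on the ERBOE arrays. The 2 ERBOE arrays with low sums were those with low Fasl; their part in the result was not tested. All 9 T cell markers were lower too, by a median of -0.61, with 0 passing.

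The other lesion genes with small p-values were Birc2 (-0.52 ± 0.25), Traf1 (-0.89 ± 0.47, or -0.45 without PRCre lesion replicate 2), Tnfsf10 (-1.06 ± 0.61), Tnfrsf10b (0.47 ± 0.28) and Ripk3 (0.55 ± 0.34), each with an adjusted p of 0.993. Tnfsf10 read 0.70, 0.41 and 0.54 in ERBOE lesions and 0.68, 1.91 and 2.23 in PRCre lesions, so PRCre replicate 1 lay with ERBOE. Groups that did not overlap were 4 of 38, against 11.6% of features: Ripk3 and Aifm1 higher, Diablo and Fasl lower in ERBOE. The other Diablo probe read the other way, 0.32 ± 0.26 against -0.21 ± 0.19. Tnfrsf1a (0.26) and Tnfrsf1b (0.31), Tradd (-0.23), Ripk1 (0.02), Fadd (-0.01), Casp8 (0.09), Casp9 (-0.04), Apaf1 (-0.05) and Cycs (0.45), which form the TNF complexes and the apoptosome, all had intervals that include zero on the brightest probe. On the other Tnfrsf1a probe, ERBOE lesions averaged 0.32 (-0.16 to 0.85) and PRCre lesions -0.34 (-0.45 to -0.19), without overlap. The other Cycs probe did not overlap either (ERBOE 1.71 to 2.14, PRCre 1.27 to 1.57). The other probes of Ripk1, Casp9 and Apaf1 overlapped.

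In unoperated uterus Bak1, a pore-forming effector, read higher with the ERBOE label: 2.86, 3.10 and 2.40 against 1.74, 2.07 and 1.84 in PRCre, a difference of 0.91 ± 0.39 (adjusted p = 0.468). The groups did not overlap, and the within-slide differences were 1.12, 1.04 and 0.56. The same difference was -0.02 ± 0.39 in eutopic endometrium and -0.19 ± 0.39 in lesions, and the effect in lesions minus that in uterus, -1.10 ± 0.56, did not pass (adjusted p = 0.757). Fadd read 0.43 ± 0.22 higher and Bcl2l1 0.29 higher, also without overlap, and with Bak1 these made 3 of 38, against 15.0% of features. On each of the other Bcl2l1 probes the 2 genotypes overlapped in uterus. Bbc3 (-0.62 ± 0.30), Traf1 (0.82 ± 0.47), Traf2 (0.46 ± 0.27) and Diablo (-0.32 ± 0.19) followed, with adjusted p from 0.521 to 0.597, and all 7 adaptors and kinases read above zero, with a median of 0.43. The Traf2 difference was 0.22 without PRCre uterus replicate 1, and leaving out 1 array gave 0.45 to 1.28 for Traf1 and -0.90 to -0.36 for Bbc3. Epithelial markers were higher in ERBOE uterus in 11 of 12 genes, by a median of 1.57, and cycling markers in 10 of 10, by 1.58. NK markers were lower in 10 of 10, by -0.79. Endothelial markers (-1.35 to -0.42), T cell markers (-1.81 to -0.07) and the tested mast cell and eosinophil markers (-1.92 to -0.48) were also all lower. No marker of these lists passed, and the part of these cells was not tested.

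In eutopic endometrium Aifm1 read 2.90, 2.00 and 2.58 with the ERBOE label against 1.72, 1.04 and 1.64 in PRCre, higher by 1.03 ± 0.41, and Map3k5 read -2.36, -1.96 and -2.34 against -1.45, -1.12 and -1.54, lower by -0.84 ± 0.34 (adjusted p = 1 for both). Neither pair of groups overlapped, and slides 1 and 2 gave 0.91 and 1.25 for Aifm1 and -0.86 and -0.81 for Map3k5. The other Map3k5 probe gave -0.36 ± 0.39. Cycs read higher by 0.64 ± 0.36, Fas lower by -0.81 ± 0.50, Apaf1 by -0.36 ± 0.26 and Cflar by -0.27 ± 0.20. Leaving out 1 array gave 0.35 to 0.81 for Cycs, -0.58 to -0.14 for Apaf1 and -0.38 to -0.17 for Cflar. Groups without overlap were 5 of 38, against 9.16% of features: Aifm1 and Cycs higher, Map3k5, Fas and Cflar lower. The other Fas probe averaged -5.14 in PRCre and -5.26 in ERBOE, with overlap, and the other Map3k5 probe overlapped too. The other Cycs probe did not overlap. Of the other Cflar probes the dimmest overlapped and the rest did not.

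Whether the genotype effect differed between tissues was tested directly, and no member passed in any of the 3 contrasts, nor did any feature (0%). At an unadjusted p under 0.05 there were 0 members for lesions against eutopic endometrium (1.64% of features), 1 for lesions against uterus (6.74%) and 1 for eutopic endometrium against uterus (5.10%). The largest member value was that of Traf1, a TRAF that NF-kB induces: the genotype effect in lesions minus that in uterus was -1.71 ± 0.67 (adjusted p = 0.644). Its levels were 0.23, 0.38 and 0.36 in PRCre and 1.88, 1.34 and 0.20 in ERBOE uterus, and 0.47, 2.13 and 1.15 in PRCre and 0.58, 0.06 and 0.43 in ERBOE lesions. Each of these differences rested on a pair of high arrays, 2 of 3 in ERBOE uterus and 2 of 3 in PRCre lesions. Next by p for lesions minus uterus were Bax (0.55), Bak1 (-1.10), Tradd (-0.41), Fadd (-0.44) and Map3k5 (-0.63). For Map3k5 the effect in eutopic endometrium minus that in uterus was -1.35 ± 0.49 (adjusted p = 0.94). Diablo (0.48), Bak1 (-0.92), Bax (0.45), Traf1 (-1.09) and Cycs (0.68) followed by p in that contrast. For Fasl the effect in lesions minus that in eutopic endometrium was -1.36 ± 0.72 (adjusted p = 1), or -0.46 with normexp, with the same 2 ERBOE lesion arrays not well above background. Map3k5 (0.72), Diablo (-0.37), Fas, given above, Bik (0.64) and Ripk3 (0.55) followed there.

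Other genes of these pathways, 110 in 8 lists of which 107 were tested, gave few calls and none by genotype. Between lesions and uterus 3 of 107 rose (2.80%, against 2.09% of features). Tnfrsf11b, the decoy receptor osteoprotegerin that can bind TRAIL, rose by 1.45 ± 0.26 (adjusted p = 0.00987), Nfkbie, an inhibitor and target of NF-kB, by 1.71 ± 0.38 (adjusted p = 0.0329), and Il1b, the inflammatory cytokine, by 4.87 ± 0.91 (adjusted p = 0.0128). Il1b was well above background on 2 of 6 uterus and 4 of 6 eutopic arrays, so that the sizes printed for it are differences of fitted signals that were mostly or partly dim in the lower group. Against eutopic endometrium 2 of 107 rose (1.87%, against 1.24%), Tnfrsf11b by 1.34 ± 0.26 (adjusted p = 0.0209) and Il1b by 4.47 ± 0.91 (adjusted p = 0.0271). All 10 NF-kB factors and inhibitors read above zero in lesions against uterus, with a median of 0.51 and 1 passing. The 12 executioner caspases and substrates had a median of 0.06, with 0 passing, and the 18 p53 genes a median of 0.05, with 0 passing.

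By genotype the pathway gene with the smallest p in lesions was Tnfrsf11b, at 1.62 ± 0.37, followed by Tnfrsf12a, the TWEAK receptor, at 1.63 ± 0.56; neither passed. Over the 3 tissues Lmnb1, a nuclear lamin cut by Casp6 protein, read 1.04 ± 0.28 higher with the ERBOE label and Birc5, the mitotic IAP survivin, 1.09 ± 0.43 higher, and neither passed. Both are also expressed with the cell cycle, and all 10 cycling markers read higher over the 3 tissues, by a median of 1.20, with 0 passing; their part was not tested.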

How the data were processed

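RNA of 18 pools was measured by the authors on 1-colour Agilent mouse arrays (25 ng of total RNA, 600 ng of labelled cRNA, per the labels' protocols). The deposited scanner files hold spot intensity, background-subtracted by the scanner software per the file headers and not scaled across arrays. The authors' deposited value table is in log2 units, centred per probe, and correlated at 0.999995 to 0.999999 with the centred scanner values; column medians were -0.152 to 0.359, and no source used here says how the authors made it. Control and outlier spots were left out, the log2 processed signal minus each array's 75th percentile was taken, and spots of a probe were averaged. Of 56605 probes, 32994 matched a symbol in the RefSeq table of GRCm38.p6 by accession. The brightest probe stood for a gene (17 members had several), and a probe was kept if well above background on at least 3 of 18 arrays, leaving 33178 features. Other probes of the members were fitted together with all probes.

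One limma model (limma 3.58.1, R 4.3.3) held 6 group means over 18 arrays. Tests were 2-sided, with Benjamini-Hochberg adjustment over all features and a threshold of 0.05, and 12 comparisons were made. Intervals are at 95% and unadjusted. The number of arrays limits the precision: 3 against 3 cannot give a permutation p under 0.1, so none is given. The fit was tested on simulated data. Alternatives were normexp background correction, quantile and median scaling, no and a stricter filter, another probe choice, array weights, another variance model, slide and replicate blocks, the value table, and each array left out. Normexp used the median spot signal, where the mean had been planned. Same-numbered arrays of different groups had a median correlation of 0.03 in their deviations (-0.35 to 0.45), so the numbers were not used as pairs.

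The members and lists were chosen with earlier results of these data known. Named are members past the threshold, filled to 6 per comparison by the smallest p, with every member accounted for. Marker and pathway lists describe counts and medians and carry no test of their own.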

Additional observations from a re-analysis of the deposited data

How the results depend on the processing

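The number of members passing was 0 under every alternative in the 4 genotype comparisons, the 3 tests of whether genotype acted differently by tissue, lesions against eutopic endometrium in PRCre, and eutopic endometrium against uterus. For lesions against uterus it was 1, but 3 with normexp (Tnfrsf1b, Bcl2l1, Bid), 2 with a trended and robust variance (Tnfrsf1b, Bad), 4 with array weights (Tnfrsf1b, Bid, Bad, Fas), 0 with no filter on dim probes, where 43770 features were tested, 0 with the replicate block, and from 0 to 3 when 1 array was left out. With array weights 1 member passed for lesions against eutopic endometrium over both genotypes (Tnfrsf1b) and 3 in ERBOE (Tnfrsf1b, Ripk3, Fas); leaving out 1 array gave 0 to 1 for the former. The cause was not tested. The replicate numbers did not pair the arrays, and the block changed no other member count.

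No named member reversed: of the named differences under all alternatives 2055 kept their direction and side of the threshold, 13 passed where they had not, and 16, all of Tnfrsf1b in lesions against uterus, no longer passed. In size, 41 of the 72 named differences moved by over 1.5 times under at least 1 alternative, 29 of them with 1 array left out. The median of all features was -0.11 for genotype in uterus and 0.05 with median centring, so small uterus differences there shift with the scaling. With 3 arrays a group the median standard error of a member's genotype difference in 1 tissue was 0.31 log2 units, which sets the size of difference that could be seen.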
